A study of Mus musculus with 2 samples.

Results

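Broad anchors of BRD2 loops, those of 600 bp or more, were examined in mouse embryonic stem cells. An anchor is the stretch of DNA at either end of a chromatin loop. Of 9407 anchors in the list of loops, 2084 had a known width, and 531 of these, or 25.5%, were broad. The other 1553 anchors of known width were narrower. The members were chosen by width alone, which was read from the same loops as every other value below. Partners, scores and lengths are therefore given as a description, and no test was made.

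Both samples of the series are BRD2 ChIA-PET libraries of untreated wild-type cells of the V6.5 line, and they form 1 group with 2 replicates. Per the labels, the cells grew on irradiated mouse fibroblasts with serum and LIF. The degron cells and their treatments named in the design text of the study are not among these samples. The authors merged the replicates into 1 list of 7732 loops, so no value has a replicate error, and the sequencing depth behind a loop is unknown. The list holds no gene levels, so the cell type and any share of feeder cells could not be checked against markers.

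BRD2 belongs to the BET family, whose paired bromodomains bind acetylated histones, mostly at active promoters and enhancers. BET proteins recruit elongation and chromatin factors to these places. In mouse erythroid cells BRD2 is also known to sit beside the architectural protein CTCF. In ChIA-PET, DNA bound by the precipitated protein is ligated to other DNA nearby in the nucleus, and paired-end tags from such ligations pile up at the anchors. The width of an anchor in such a list can depend on the bound stretch, on the length of the sonicated fragments and on how tags were merged.

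Width could be known only for an anchor with partners on both sides. The left edge of an anchor was given by loops that run downstream from it, and the right edge by loops that reach it from upstream. Edges of both kinds that lay within 5000 bp in this order were assigned to the same anchor. The remaining 7323 anchors, or 77.8%, showed a single edge and have no width here, so broad anchors among them were not counted. Every anchor of known width had at least 2 partners by this construction. Positions are on mm9, as the authors' list gives them. Genes, exons and sequences at the anchors were not analysed here, because the annotation used was of another genome build.

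Widths formed a continuous range with no separate class of broad anchors. The narrowest anchors were 100 bp wide, a value held by 43 anchors, and the widest was 1663 bp wide. Broad anchors had a median width of 787 bp, with quartiles of 686 and 969 bp. Narrower anchors had a median of 272 bp, with quartiles of 179 and 396 bp. Among the broad anchors, 279 were under 800 bp, 138 were from 800 to under 1000 bp and 114 were 1000 bp or wider. On either side of the limit the density was similar, with 34 anchors from 600 to under 620 bp and 29 from 580 to under 600 bp.

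**Figure D1:**
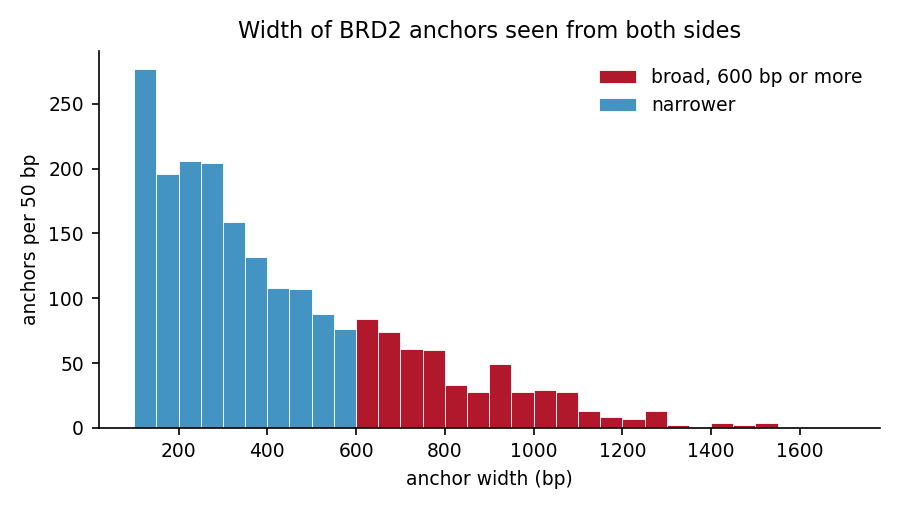
Number of anchors (y axis, per 50 bp of width) by anchor width (x axis, bp), with the 531 broad anchors in red and the 1553 narrower anchors in blue. The counts fall away from 100 bp with no gap at 600 bp, and the last anchor lies at 1663 bp.

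Anchors just inside and just outside the limit had 2 to 6 partners. Just inside, the anchor at chr7:108970438-108971038 (600 bp) had 3 partners and a summed score of 8000. The anchor at chr17:10548848-10549448 (600 bp) had 3 partners and a summed score of 7000. The anchor at chr7:80763293-80763894 (601 bp) had 6 partners and a summed score of 41000, the third highest of all broad anchors. Just outside, the anchor at chr1:72852284-72852883 (599 bp) had 2 partners and a summed score of 5000. The anchor at chr1:173217659-173218258 (599 bp) had 3 partners and one of 10000, and the anchor at chr3:96001102-96001700 (598 bp) had 2 partners and one of 6000.

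The first comparison was whether a broad anchor contacts more places than a narrower one. The mean was not higher for broad anchors. They had a mean of 2.88 ± 1.20 partners (SD over 531 anchors), and narrower anchors had 2.98 ± 1.28 (SD over 1553 anchors). Exactly 2 partners were held by 269 broad anchors and 737 narrower anchors. With 3 or more partners there were 262 broad anchors, or 49.3% (exact Clopper-Pearson 95% interval 45.0 to 53.7%), and 816 narrower anchors, or 52.5% (50.02 to 55.1%). The intervals overlap. Intervals here and below cover counting error only, and anchors that share loops are not independent.

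Anchors with very many partners were rare in both classes. With 8 or more partners there were 3 of the 531 broad anchors and 16 of the 1553 narrower ones. Broad anchors made up 25.5% of all anchors of known width, and these counts are too small for a comparison. The loop ends of broad anchors divided evenly by direction, with 763 reaching upstream and 766 downstream. Equal numbers of partners on both sides were seen at 303 of the 531 broad anchors. Known width requires a partner on each side, so the 269 with exactly 2 partners are equal by construction. Most of this count was thus fixed in advance, and it was not made for narrower anchors. Across the 2084 anchors of known width, Spearman's rho between width and number of partners was -0.04, a description over anchors that share loops, library and depth.

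The second comparison concerned the score of the loops, which is the authors' own value. All scores were whole multiples of 1000, the lowest was 2000, and the unit is not given in the sources used here. Loops at broad anchors carried the lowest score more often than loops at narrower anchors. Over all 7732 loops of the list, 57.8% carried it, so broad anchors lay near the whole list and narrower anchors below it. Of 1529 loop ends at broad anchors, 639, or 41.8% (39.3 to 44.3%), had a score of 3000 or more. At narrower anchors the count was 2247 of 4635 loop ends, or 48.5% (47.03 to 49.9%). The mean loop score was 3181 ± 2640 at broad anchors and 3482 ± 2923 at narrower anchors (SD over loop ends). A loop that joins a pair of anchors of known width was counted at each of them.

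The same direction held for scores taken per anchor. The summed score, over all loops of an anchor, had a median of 7000 at broad anchors and 8000 at narrower anchors. It was 10000 or more at 161 broad anchors, or 30.3% (26.4 to 34.4%), and at 581 narrower anchors, or 37.4% (34.998 to 39.9%). The strongest loop of an anchor had a score of 5000 or more at 154 broad anchors, or 29.0% (25.2 to 33.1%), and at 601 narrower anchors, or 38.7% (36.3 to 41.2%). All loops lay at the lowest score for 150 broad anchors, or 28.2% (24.5 to 32.3%), and for 342 narrower anchors, or 22.02% (19.98 to 24.2%). At least 1 loop with a score of 10000 or more was found at 36 broad anchors, or 6.78% (4.79 to 9.26%), and at 124 narrower anchors, or 7.98% (6.68 to 9.45%), where the intervals overlap.

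The scores were also set side by side by number of partners. With 2 partners, the median summed score was 5000 at broad anchors and 5000 at narrower anchors. With 3 partners it was 8000 at the 138 broad anchors and 9000 at the 415 narrower ones. With 4 partners it was 12000 at the 77 broad anchors and 13000 at the 230 narrower ones. With 5 or more partners it was 17000 at the 47 broad anchors and 21000 at the 171 narrower ones. The last class mixes different numbers of partners. The medians of broad anchors were thus equal to those of narrower anchors at 2 partners and lower at 3, 4 and 5 or more. The strongest loop of an anchor with exactly 2 partners had a score of 5000 or more at 15.6% of the 269 broad anchors and at 22.7% of the 737 narrower anchors. With 3 partners the median score of the strongest loop was 3000 at broad anchors and 4000 at narrower anchors.

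The difference in loop score was not the same at all loop lengths. In loops of 5 to 20 kb, scores reached 3000 or more at 61.2% of 547 loop ends at broad anchors (57.02 to 65.3%) and at 60.6% of 1866 loop ends at narrower anchors (58.4 to 62.8%). In loops of 20 to 100 kb the share was 34.8% of 690 loop ends at broad anchors (31.2 to 38.5%) and 45.9% of 1966 at narrower anchors (43.7 to 48.1%). In loops over 100 kb it was 21.9% of 292 loop ends at broad anchors (17.3 to 27.1%) and 26.7% of 803 at narrower anchors (23.6 to 29.9%). Only the intervals of the 20 to 100 kb class do not overlap. The lengths were divided in this way after the data were seen, and the difference between length classes was not tested.

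The third comparison was of loop length, measured between the outer edges of a loop. Broad anchors reached farther to their nearest partner. The shortest loop of an anchor had a median length of 13.1 kb at broad anchors (quartiles 9.08 and 22.03 kb) and 10.8 kb at narrower anchors (7.71 and 17.5 kb). It was under 10 kb at 169 broad anchors, or 31.8% (27.9 to 36.0%), and at 688 narrower anchors, or 44.3% (41.8 to 46.8%). Since this length includes the anchor itself, a broad anchor adds to it. With the own width taken off, the shortest loop was under 10 kb at 202 broad anchors, or 38.04% (33.9 to 42.3%), and at 724 narrower anchors, or 46.6% (44.1 to 49.1%), so the intervals still do not overlap.

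The median loop of an anchor was also longer. It had a median of 34.8 kb over broad anchors (quartiles 20.1 and 68.5 kb) and 30.7 kb over narrower anchors (16.9 and 59.2 kb). It was 50 kb or more at 194 broad anchors, or 36.5% (32.4 to 40.8%), and at 475 narrower anchors, or 30.6% (28.3 to 32.9%), where the intervals overlap slightly. Over single loop ends the median length was 30.4 kb at broad anchors and 27.9 kb at narrower anchors. A loop longer than 5 Mb was held by 36 broad anchors, or 6.78% (4.79 to 9.26%), and by 80 narrower anchors, or 5.15% (4.11 to 6.37%). Among anchors with exactly 2 partners, the median of the shortest loop was 14.8 kb at broad anchors and 11.2 kb at narrower anchors. In the same order it was 13.38 and 10.97 kb with 3 partners and 12.5 and 10.4 kb with 5 or more. With 4 partners the values were close, at 10.36 and 10.06 kb. The median loop was 37.9 and 27.8 kb with 2 partners and 43.8 and 33.6 kb with 4. It was closer with 3 partners, at 27.9 and 27.1 kb, and with 5 or more, at 43.9 and 42.6 kb.

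**Figure D2:**
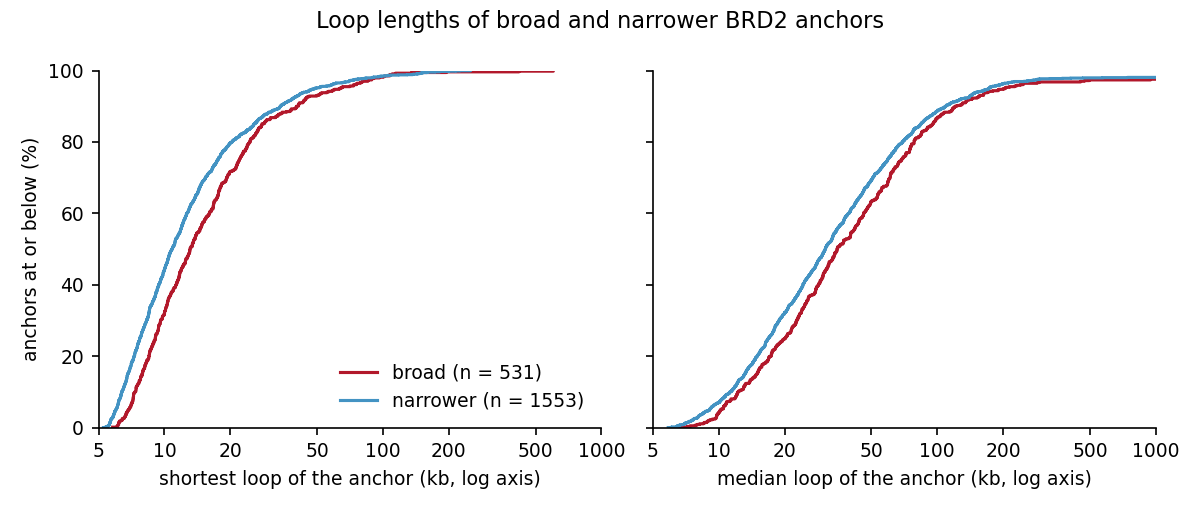
Cumulative share of anchors (y axis, %) by the length of their shortest loop (left) and of their median loop (right) in kb on log axes, broad anchors in red and narrower anchors in blue. The red curve lies to the right of the blue one over most of the range, with medians of 13.1 kb against 10.8 kb on the left and 34.8 kb against 30.7 kb on the right. The axes end at 1000 kb, and the few longer values lie beyond.

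Broad anchors also stood slightly farther from other anchors, joined or not. The gap from a broad anchor to the nearest listed anchor of any kind had a median of 11.2 kb (quartiles 7.86 and 17.2 kb), and from a narrower anchor 9.85 kb (7.18 and 14.7 kb). The smallest gaps were 5.01 kb for broad anchors and 5.03 kb for narrower anchors. For an anchor of unknown width, its single known edge was used. The list holds no loop shorter than 5256 bp, so closer contacts lie outside what it can show.

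Rank correlations between width and these measures were weak across the 2084 anchors. Spearman's rho of width was -0.08 with summed score, -0.09 with mean score, 0.09 with median loop length and 0.15 with shortest loop length. Within the 531 broad anchors alone it was 0.06 with summed score, 0.10 with mean score and 0.02 with shortest loop length. Among the 1553 narrower anchors these values were -0.05, -0.05 and 0.08. Within the broad class the relation of width with mean score was thus weak, with a sign opposite to that over all anchors. Shortest loop length showed almost no order with width there.

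The measures did not all follow width in steps. The share of anchors whose shortest loop was under 10 kb was 49.0% at widths from 100 to under 200 bp, 43.7% up to 400 bp, 39.6% up to 600 bp, 32.3% from 600 to under 800 bp, 32.6% up to 1000 bp and 29.8% at 1000 bp or more. The share of loop ends with a score of 3000 or more was 50.8% in the narrowest of these classes and 47.2% and 47.98% in the next. It was 41.2% from 600 to under 800 bp, 39.1% up to 1000 bp and 46.1% at 1000 bp or more. The share at the widest anchors thus lay near those of the narrower classes. Its interval, 40.8 to 51.5%, overlapped that of every other width class, broad or narrower. Mean partners were 2.91 ± 1.15 from 600 to under 800 bp, 2.69 ± 1.002 up to 1000 bp and 3.04 ± 1.48 at 1000 bp or more (SD over anchors).

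The values at the widest anchors were also taken without a pair on chromosome 1. Without the 2 broad anchors that have the most partners, both wider than 1000 bp, the remaining 112 anchors of 1000 bp or more had a mean of 2.91 ± 1.10 partners. Their mean loop score was 3221, against 3516 with the pair, and 45.4% of their loop ends had a score of 3000 or more (39.9 to 50.98%).

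**Figure D3:**
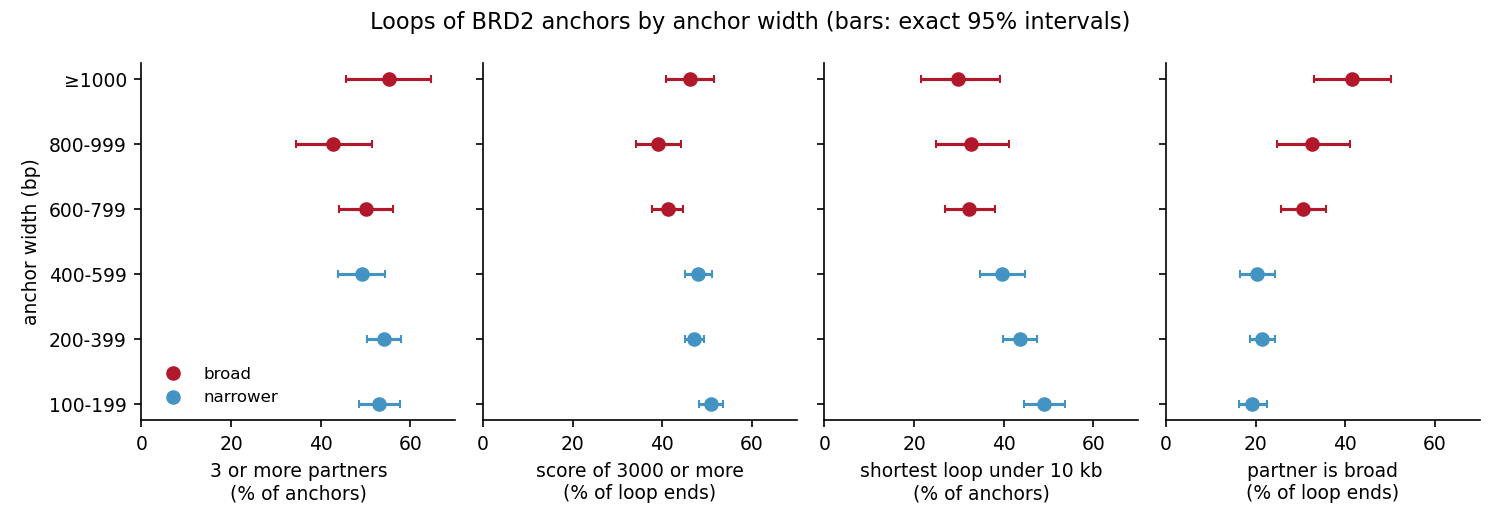
Shares (x axes, %) by anchor width (y axis, bp) for anchors with 3 or more partners, loop ends with a score of 3000 or more, anchors whose shortest loop is under 10 kb, and loop ends whose partner is broad, with exact 95% intervals. Points of broad classes are red and those of narrower classes blue. The share with a short loop goes from 49.0% in the narrowest class to 29.8% in the widest, and the share with a broad partner is 30.6 to 41.5% in the broad classes and 19.2 to 21.5% in the narrower ones.

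Broad anchors were joined to other broad anchors more often than narrower anchors were. For 616 loop ends of broad anchors the width of the partner was known, and 206 partners, or 33.4% (29.7 to 37.3%), were broad. A loop between broad anchors was counted at both of its ends. These 206 thus come from 103 loops, and the interval is too narrow even for counting error. For narrower anchors 410 of 2002 partners, or 20.5% (18.7 to 22.3%), were broad. Had partners been as often broad as the other anchors of known width on the same chromosome, the shares would have been 25.7% for broad anchors and 24.8% for narrower anchors. This baseline counts each anchor once and makes no allowance for the slightly lower mean number of partners of broad anchors. The loops with both widths known numbered 1309. Of these, 103 joined broad anchors at both ends, 410 had a single broad end and 796 had none.

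The pattern was present at each loop length. In loops of 5 to 20 kb, the partner was broad for 34.7% of loop ends at broad anchors (28.4 to 41.4%) and for 17.9% at narrower anchors (15.3 to 20.7%). In loops of 20 to 100 kb the shares were 32.7% at broad anchors (27.3 to 38.3%) and 22.6% at narrower anchors (19.9 to 25.5%). In loops over 100 kb they were 33.01% at broad anchors (24.1 to 43.0%) and 21.2% at narrower anchors (16.9 to 26.1%), with overlapping intervals. A partner of known width is one with loops on both sides, so partners at the end of a group of anchors are left out of these shares. Loops between broad anchors count at both ends here as well, so the intervals for broad anchors are too narrow.

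**Figure D4:**
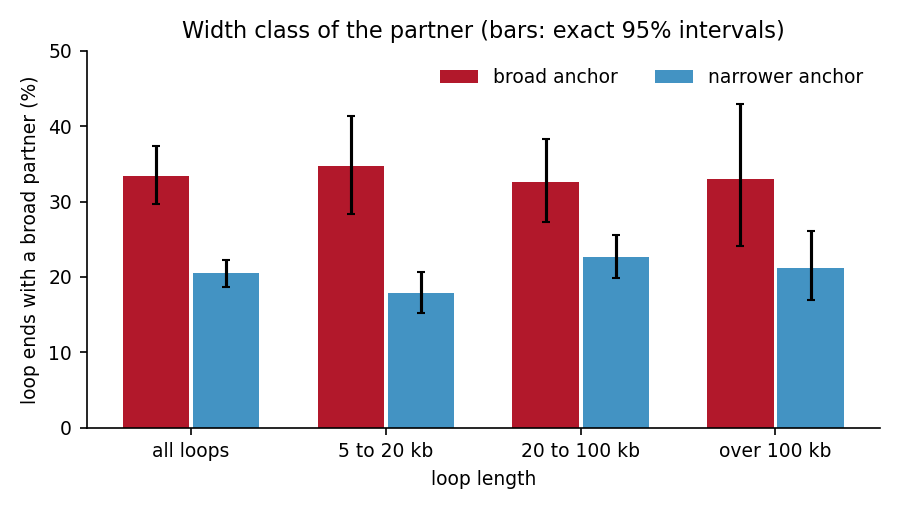
Share of loop ends whose partner is broad (y axis, %) for broad anchors (red) and narrower anchors (blue), over all loops and by loop length (x axis), with exact 95% intervals. The red bars stand at 32.7 to 34.7% and the blue bars at 17.9 to 22.6%. Loops between broad anchors count at both ends, so the intervals of the red bars are too narrow.

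A similar clustering was seen among neighbours that no loop joined. Pairs of known-width anchors within 100 kb of each other were counted, where 1096 pairs were joined by a loop and 852 were not. Among joined pairs, the neighbour of a broad anchor was broad in 33.5% of cases (29.5 to 37.8%) and the neighbour of a narrower anchor in 20.3% (18.4 to 22.3%). Among pairs that were not joined, these shares were 29.0% for broad anchors (24.4 to 33.8%) and 19.9% for narrower anchors (17.8 to 22.2%). A pair of broad anchors counts from both sides in these shares, so the intervals for broad anchors are too narrow. A loop joined 61.4% of the 140 pairs of broad anchors (52.8 to 69.5%), 56.3% of the 606 mixed pairs (52.2 to 60.3%) and 55.7% of the 1202 pairs of narrower anchors (52.8 to 58.5%). These intervals overlap.

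Loops between broad anchors had a lower mean score than loops between narrower anchors, within a wide spread. The mean score was 3738 ± 3622 in the 103 loops with broad anchors at both ends, 3529 ± 3320 in the 410 loops with a single broad end and 4102 ± 3905 in the 796 loops between narrower anchors (SD over loops). The share with a score of 3000 or more was 45.6% (35.8 to 55.7%) with broad anchors at both ends, 48.5% (43.6 to 53.5%) with a single broad end and 55.3% (51.7 to 58.8%) with none. Median lengths were 29.04 kb, 29.1 kb and 26.6 kb in the same order.

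The 5 strongest loops between broad anchors each had a score of 11000 or more. The first joined chr15:81344621-81345321 (700 bp) to chr15:81352564-81354024 (1460 bp) over 9.40 kb with a score of 25000. The next joined chr1:88368524-88369778 (1254 bp) to chr1:88383662-88384782 (1120 bp) over 16.3 kb with a score of 19000. On chromosome 11 the loop from chr11:102975976-102977062 (1086 bp) to chr11:102993728-102994423 (695 bp) had a score of 17000 over 18.4 kb. The loop from chr11:62308112-62308800 (688 bp) to chr11:62325038-62325792 (754 bp) had a score of 12000 over 17.7 kb. The last joined chr3:95021086-95022626 (1540 bp) to chr3:95032100-95032774 (674 bp) over 11.7 kb with a score of 11000. All 5 were shorter than 20 kb.

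Partners of a broad anchor were joined to each other less often than partners of a narrower one. Over loops of up to 1 Mb, 382 of 1690 pairs of partners of broad anchors, or 22.6% (20.6 to 24.7%), were themselves joined by a listed loop, which closes a triangle. For narrower anchors it was 1655 of 5606 pairs, or 29.5% (28.3 to 30.7%). At anchors with 2 such partners the share was 16.9% for broad anchors (12.6 to 21.9%) and 23.6% for narrower anchors (20.6 to 26.9%). With 3 it was 21.3% for broad anchors (17.5 to 25.6%) and 30.7% for narrower anchors (28.1 to 33.4%), and with 4 it was 25.5% (21.4 to 29.9%) and 29.6% (27.1 to 32.2%) in the same order. The intervals overlap with 2 and with 4 partners but not with 3. A triangle can be counted at up to 3 of its anchors, so these counts are not independent.

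Large connected groups held similar shares of both classes. A connected group holds all anchors joined directly or through other anchors. Of the broad anchors, 209, or 39.4% (35.2 to 43.7%), lay in a group of 10 or more anchors, and of the narrower anchors 622, or 40.1% (37.6 to 42.5%), with overlapping intervals. The broad anchors were spread over 372 groups. In 41 groups there were 3 or more of them, and no group held more than 5. A group with at least 1 other broad anchor held 264 of the 531. These counts of groups were not made for narrower anchors, so they cannot be read as clustering.

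Broad anchors were found on all 20 chromosomes that hold loops. Their share of known-width anchors ranged from 13.4% on chromosome 4 (18 of 134, 8.16 to 20.4%) to 34.8% on chromosome 8 (31 of 89, 25.04 to 45.7%). Chromosome 4 was the only one of the 20 whose interval left out the overall share of 25.5%. Chromosome 11 held the most broad anchors, 68 of 239, and chromosome X held 3 of 9. Within chromosomes, the mean loop score was lower at broad than at narrower anchors on 17 of 20, and the median of the shortest loop was longer on 18 of 20. Mean partners were lower at broad anchors on 13 of 20.

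The 10 widest anchors and the 10 broad anchors with the most partners had no member in common. Lists of 10 among 531 anchors can miss each other without any relation between width and partners. Exactly 2 partners were held by 6 of the 10 widest and by 50.7% of all broad anchors. The 2 broad anchors with the most partners were 1120 and 1254 bp wide. The widest, at chr19:40968507-40970170 (1663 bp), had 4 partners. Its loops had scores of 24000 over 22.9 kb and 2000 over 65.3, 119.9 and 147 kb, so a single near contact carried most of its summed score of 30000. The second, at chr11:59988899-59990510 (1611 bp), had 5 partners with scores of 2000 to 6000. Its strongest loop ran 63.03 kb upstream to another broad anchor at chr11:59927477-59928553, of 1076 bp.

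Most of the other widest anchors had 2 partners. Their summed scores were near 5000, the median for anchors with 2 partners in both classes. The anchors at chr3:107135612-107137198 (1586 bp), chr9:8003461-8004978 (1517 bp) and chr4:46401666-46403125 (1459 bp) each had 2 partners and a summed score of 5000. Those at chr7:117204277-117205792 (1515 bp), chr4:108078399-108079901 (1502 bp) and chr7:13419593-13421017 (1424 bp) each had 2 partners and a summed score of 6000. The anchor at chr3:95021086-95022626 (1540 bp) had 3 partners and a summed score of 15000. The anchor at chr15:81352564-81354024 (1460 bp) had 3 partners. Its loop of 9.40 kb to the broad anchor upstream had a score of 25000, and its loops of 172 kb and 17.5 Mb had the lowest score.

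The pair of broad anchors with the most partners lay 15.1 kb apart by their left edges on chromosome 1. The anchor at chr1:88383662-88384782 (1120 bp) had 11 partners and a summed score of 90000. Its strongest loop, with a score of 42000, ran 16.6 kb downstream to a narrower anchor of 420 bp at chr1:88399839-88400259. Its next loops had scores of 19000 to the broad anchor of 1254 bp upstream and 10000, over 6.92 kb, to another broad anchor of 795 bp at chr1:88377859-88378654. A score of 5000 belonged to a loop of 38.9 kb, and the remaining 7 loops, of 22.8 kb to 48.6 Mb, all had a score of 2000. One of these, of 46.5 Mb, ended at another broad anchor, chr1:134921446-134922139 (693 bp).

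The anchor at chr1:88368524-88369778 (1254 bp) had 10 partners and a summed score of 80000, and its loops were all of 60.4 kb or less. Scores of 20000, 19000 and 18000 belonged to loops of 31.7, 16.3 and 30.6 kb, and the other 7 loops had scores of 2000 to 5000. In the group of these anchors, 14 anchors lay within 200 kb of the anchor with 11 partners, of which 3 were broad, 7 narrower and 4 of unknown width. Of the 30 loops among these 14, 17 had at least 1 broad end. The highest summed score of the 14, at 120000, belonged to the narrower anchor of 420 bp, which had 9 partners.

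**Figure D5:**
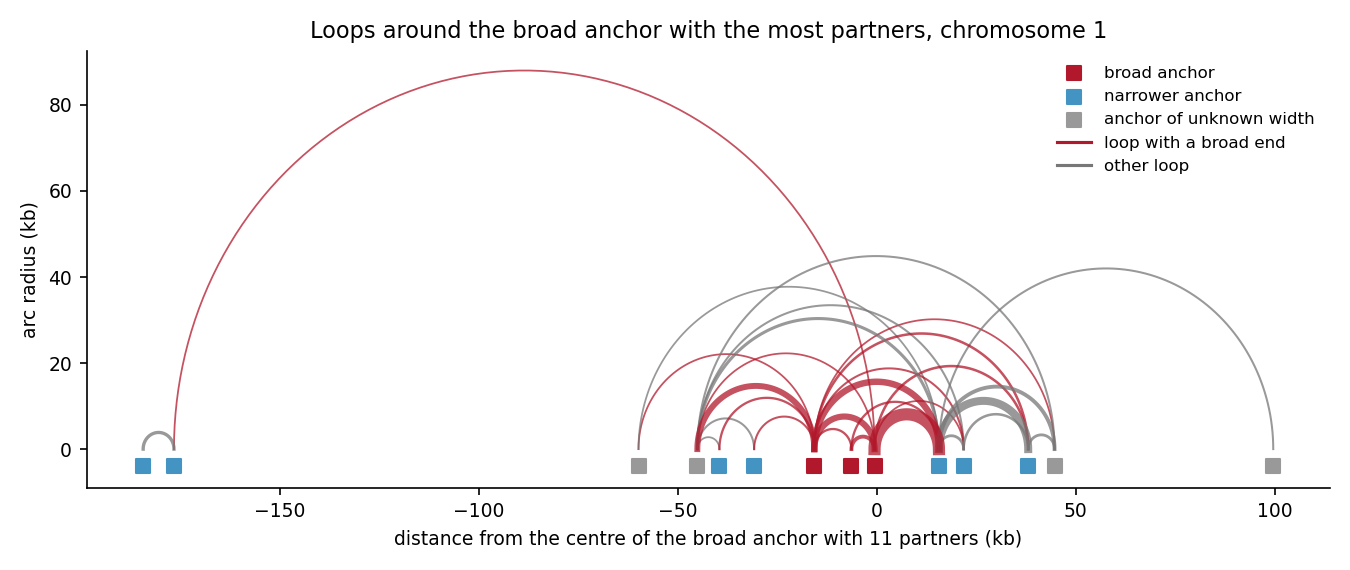
Loops (arcs) among the 14 anchors (squares) within 200 kb of the broad anchor with 11 partners on chromosome 1, by distance from its centre (x axis, kb), where the radius of an arc (y axis, kb) grows with its loop length and its thickness grows with the score. Red squares are broad anchors, blue narrower and grey of unknown width, and red arcs have at least 1 broad end. The 3 broad anchors stand side by side, and the thickest arc joins one of them to the narrower anchor at 15.6 kb.

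Other broad anchors with many partners differed in the strength of their loops. At chr7:88207759-88208757 (998 bp), 7 of the 8 loops had a score of 2000, and the strongest, of 7000, ran 175 kb to the broad anchor at chr7:88033392-88034408 (1016 bp). At chr11:20040182-20040821 (639 bp), the 7 loops had scores of 2000 or 3000 and reached up to 602 kb. By contrast, the 6 loops of chr7:80763293-80763894 (601 bp) had scores of 13000, 10000, 8000, 6000, 2000 and 2000. The anchor at chr7:71101885-71102577 (692 bp) had 7 partners and a summed score of 33000, and that at chr12:88164849-88165563 (714 bp) had 7 and one of 26000. The remaining 3 of the 10, at chr11:102975976-102977062 (1086 bp), chr6:122652454-122653252 (798 bp) and chr11:62325038-62325792 (754 bp), had 6 partners each and summed scores of 34000, 24000 and 24000.

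At some broad anchors a high summed score came mostly from a single loop. At others among the 10 highest no single loop gave most of it, as at the pair on chromosome 1 and at chr7:80763293-80763894. How often this occurs at narrower anchors was not examined. At chr4:133312455-133313211 (756 bp), which had only 2 partners, a loop of 64.8 kb to a narrow anchor of 166 bp had a score of 30000 and the other loop one of 3000. At chr4:136018569-136019319 (750 bp), a loop of 7.17 kb had a score of 20000 and the other 4 had scores of 2000 or 3000. At chr15:81344621-81345321 (700 bp), the loop of 9.40 kb to the broad anchor beside it gave 25000 of 35000. A summed score of 50000 or more was reached by 2 of the 531 broad anchors, the pair on chromosome 1, and by 11 of the 1553 narrower ones. These counts are too small for a comparison.

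The 5 broad anchors with the longest median loop, among those with 4 or more partners, had median loops of 156 kb or more. The anchor at chr1:134921446-134922139 (693 bp) had loops of 9.36 kb, 106 kb, 18.2 Mb and 46.5 Mb with scores of 3000, 2000, 2000 and 2000. At chr7:117307655-117308652 (997 bp) the median of 4 loops was 286 kb with a strongest score of 4000. At chr7:88033392-88034408 (1016 bp) the median of 5 loops was 201 kb with a strongest score of 7000. At chr4:136018569-136019319 it was 156 kb and at chr2:181048056-181049004 (948 bp) 156 kb. The longest loop of the anchor on chromosome 2 was 151 Mb, and its 4 loops summed to a score of 10000.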

How the data were processed

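BRD2 ChIA-PET was measured in 2 samples of 1 group. Per the submitters' processing notes, cutadapt and Bowtie were used, with the genome build mm9. Per the file header, the authors deposited high-confidence interactions of the merged replicates, each with a score whose unit is not stated. For the caller, its thresholds and the depth, values were not given in the sources used here. Start and end of anchor 1 were taken as a loop's outer edges, an inference on which all widths rest. The second anchor's columns repeat the left edge and were not used.

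Anchors, widths, partners and lengths were computed with pandas 2.3.3 and numpy 2.4.6 in Python 3.11.15, intervals with scipy 1.17.1 and figures with matplotlib 3.10.9. Edge pairing was run on simulated anchors that stood farther apart than the pairing limit. This checked the code and could not show wrong pairing in these data. Shares have exact Clopper-Pearson 95% intervals. No hypothesis was tested, because the list has no values per replicate.

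The anchors named are the 10 widest, the 10 broad ones with the most partners, the 10 with the highest summed score, the 5 with the longest median loop among those with 4 or more partners, the 5 strongest loops between broad anchors and 3 anchors on each side of the limit. Others are named as their partners. The members and these lists were chosen with earlier results of these data known. Alternatives were other width limits, stricter loops, shorter loops, another pairing distance and subsets of anchors.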

Additional observations from a re-analysis of the deposited data

How the results depend on the processing

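Differences in share, broad minus narrower anchors in percentage points, were recomputed under alternatives for 7 measures, and 56 of 67 values stayed within the counting interval (Newcombe, 95%) of the value over all anchors. With a limit of 1000 bp (114 broad anchors), the difference was 3.74 points for 3 or more partners (-3.20 at 600 bp), -2.40 for summed score (-7.09), -2.13 for strongest loop (-9.70), -0.75 for loop score (-6.69) and 5.50 for a broad partner (12.96). For a broad partner it was 8.14 at 500 bp and 6.35 at 800 bp, where by construction more anchors (695) and fewer anchors (252) count as broad. Among anchors with exactly 2 partners the summed score gave -2.26. Over loops with a score of 3000 or more, the share with a median loop of 50 kb or more turned to -1.11, from 5.95. Loop score gave 0.63 in loops of 5 to 20 kb and -11.1 in those of 20 to 100 kb. Apart from the limits, the cause was not tested. Pairing edges within 2000 bp gave the same values in all 7 measures, so it tested nothing, yet these 7 values are among the 56. Chosen after seeing the data were the 3 length classes, the own width taken off and the pair on chromosome 1 set aside. Leaving out replicates was not run, because the authors merged them, nor was loop score at a minimum score of 3000, where the share is fixed. No paired analysis was possible because both samples belong to the same group. As depth is unknown, an anchor without a listed partner cannot be called unpaired.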
